A study of Mus musculus with 16 samples.

Results

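The genes described here carry newly made proteins into the endoplasmic reticulum (ER), fold them there and move them on to the Golgi. They were chosen by gene symbol: the signal recognition particle and its receptor, the Sec61 translocon and Sec62/Sec63, the translocon-associated Ssr proteins and the signal peptidase, the lumenal chaperones and protein disulfide isomerases, 5 regulators of the unfolded protein response, the COPII and COPI vesicle coats, the Tmed (p24) cargo receptors and the KDEL receptors. The symbols picked out 79 of the 20072 genes in the table, and the symbol rule uses no measured value. Of these, 77 reached 1 FPKM (fragments scaled for gene length and library size, the unit of the deposited table) in 4 or more libraries and were tested. Sec31b and the pseudogene Tmed10-ps reached it in too few libraries, with 1.58 FPKM or less in each.

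RNA was measured by bulk sequencing in cells sorted from small intestine. The donors were Tph1-CFP mice, untreated and aged 8 to 16 weeks, in which a cyan fluorescent protein expressed under Tph1 control labels enterochromaffin (EC) cells, the endocrine cells that make gut serotonin. The groups were villus EC (CFP-positive cells of the villus fraction), villus epi (CFP-negative epithelial cells of the villus fraction), crypt EC (CFP-positive, crypt fraction) and crypt epi (CFP-negative, crypt fraction), each with 4 libraries of 5000 pooled cells. All groups carry the reporter, and no group without it was analysed here. The labels do not say which libraries came from the same animal, so p-values measure only the spread between these libraries.

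Secreted and membrane proteins enter the ER through the Sec61 channel, guided by the signal recognition particle, and lose their signal peptide to signal peptidase. In the lumen, chaperones such as BiP (Hspa5) and disulfide isomerases fold them, and the sensors Ern1 (IRE1), Atf6 and the kinase PERK adjust this capacity when unfolded protein builds up. COPII coats then bud cargo towards the Golgi, COPI coats return escaped residents, and the KDEL receptors recognise the retrieval signal of lumenal chaperones. In the intestine this route makes antimicrobial granules in Paneth cells, mucus in goblet cells, hormones in endocrine cells and chylomicrons, the lipid carriers, in absorptive enterocytes.

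Promoter windows are shown first because the members that hold each element fell on opposite sides of the villus comparison. RefSeq's promoter table (build GRCm38.p6, 250 bases before to 50 after each gene's start) held 67 of the 79 members and 27025 genes in all. Both strands were searched for the ER stress element (ERSE, CCAAT and CCACG with 9 bases between them) and the unfolded protein response element (UPRE, TGACGTGG). No member held more than 1 of the elements searched. ERSE occurred in 5 of 67 members, or 7.46%, against 0.137% of all genes in the table. UPRE occurred in 6 of 67 members, or 8.96%, against 0.714% of all genes. The windows are given 5′ to 3′ on the gene's strand, with the element in capitals, and a match is a description of the letters only. The ERSE holders are lumenal chaperones and an isomerase:
Hspa5, chr2:34772010-34772058 (+): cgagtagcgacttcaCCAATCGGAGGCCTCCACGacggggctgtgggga
Pdia6, chr12:17266476-17266524 (+): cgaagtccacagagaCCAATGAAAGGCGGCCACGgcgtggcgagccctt
Canx, chr11:50325785-50325833 (-): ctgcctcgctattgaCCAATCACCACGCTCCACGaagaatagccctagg
Calr, chr8:84847060-84847108 (-): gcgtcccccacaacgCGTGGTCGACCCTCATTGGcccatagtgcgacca
Hsp90b1, chr10:86705623-86705671 (-): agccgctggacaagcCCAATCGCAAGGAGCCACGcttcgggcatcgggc
Hsp90b1, chr10:86705518-86705566 (-): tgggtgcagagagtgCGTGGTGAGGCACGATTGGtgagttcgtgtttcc
The UPRE holders are 3 COPII genes, 2 COPI genes and a KDEL receptor, and the windows of 5 of the 6 are shown:
Sec24d, chr3:123267455-123267492 (+): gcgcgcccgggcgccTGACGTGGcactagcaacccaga
Sec16b, chr1:157506737-157506774 (+): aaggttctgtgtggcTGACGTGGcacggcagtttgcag
Copb1, chr7:114254686-114254723 (-): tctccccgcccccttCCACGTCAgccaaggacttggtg
Copb2, chr9:98563709-98563746 (+): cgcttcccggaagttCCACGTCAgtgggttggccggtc
Kdelr3, chr15:79516363-79516400 (+): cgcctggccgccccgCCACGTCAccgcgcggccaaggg
In Calr, the second Hsp90b1 window, Copb1, Copb2 and Kdelr3 the element lies on the opposite strand, so its reverse complement is capitalised. A cyclic AMP response element (TGACGTCA) was found in 1 member, Cope, and in 2.03% of all genes. The ATF4 element TGATGNAAT was found in 0 members and in 1.08% of all genes. ERSE-II (ATTGG and CCACG with 1 base between) was found in Dnajb11 alone among members and in 0.0444% of all genes.

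EC markers separated the groups as labelled. Summed values of 7 EC markers ran from 84411 to 124324 in villus EC against 368 to 483 in villus epi, and from 86293 to 108691 in crypt EC against 1366 to 1898 in crypt epi. The epi groups differ in the cells they hold. Summed values of 11 absorptive enterocyte markers were 101426 to 148709 in villus epi and 3149 to 9354 in crypt epi, and those of 10 Paneth markers were 281 to 531 in villus epi and 196002 to 225495 in crypt epi. Summed values of 12 goblet markers were 19577 to 38506 in villus epi and 60898 to 73501 in crypt epi. The goblet list holds Agr2, Ern2 and Creb3l1, which are themselves ER genes. Plasma and B cell markers, another source of ER-rich cells, summed to at most 66.5 in any library. That sum, in crypt epi replicate 1, was mostly Sdc1, at 60.7 FPKM. No other gene of the list exceeded 5.71 FPKM in any library.

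Villus epi replicate 2 stood apart from every other library. Its mean correlation with its own group was 0.812, against 0.923 to 0.926 for the other villus epi libraries, and its mitochondrial share was 5.26% against 10.9% to 14.9%. The other groups had mitochondrial shares of 2.23% to 2.48% in villus EC, 2.95% to 4.32% in crypt EC and 3.24% to 4.08% in crypt epi, so the other 3 villus epi libraries lay farthest from them. Those 3 also had the fewest genes at 1 FPKM or more, 11318 to 11584, against 12055 to 13071 in the other groups. The part of this difference in the results that involve villus epi was not tested. Of 7 stroma and endothelium markers, Dcn stood out in replicate 2, at 130.3 FPKM against at most 1.60 FPKM in any other library. Pecam1, at 23.1 FPKM, lay above the other epi libraries (at most 3.29 FPKM) but within the EC libraries (13.3 to 33.0 FPKM). The other 5 were at 2.27 FPKM or less in replicate 2. Counts over all members that rest on villus epi are therefore given with and without replicate 2. Those of roles and related lists, and the values of single genes, are given without it only in part. Deposited values sum to different totals, 805073 to 901567 in villus EC, 1190720 to 1415120 in villus epi, 731415 to 766491 in crypt EC and 1045160 to 1136980 in crypt epi, so directions were also read after rescaling to a common total and by median ratios. Read counts were not used here and the depth of each library is unknown.

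As a share of each library's total, the 79 members took 1.09% to 1.18% in villus EC, 0.630% to 0.648% in villus epi without replicate 2, 1.24% to 1.29% in crypt EC and 1.20% to 1.28% in crypt epi. In replicate 2 of villus epi the share was 1.37%, with Kdelr2 alone at 6972 FPKM against 106 to 133 FPKM in the other 3. The roles divided the villus groups in opposite directions. Folding genes took 0.327% to 0.404% in villus EC and 0.0714% to 0.109% in villus epi, whereas COPII genes took 0.0754% to 0.0844% in villus EC and 0.151% to 0.165% in villus epi. Neither pair of groups overlapped, with or without replicate 2. In bulk RNA, fewer cells of a type and less RNA per cell cannot be told apart.

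**Figure D1:**
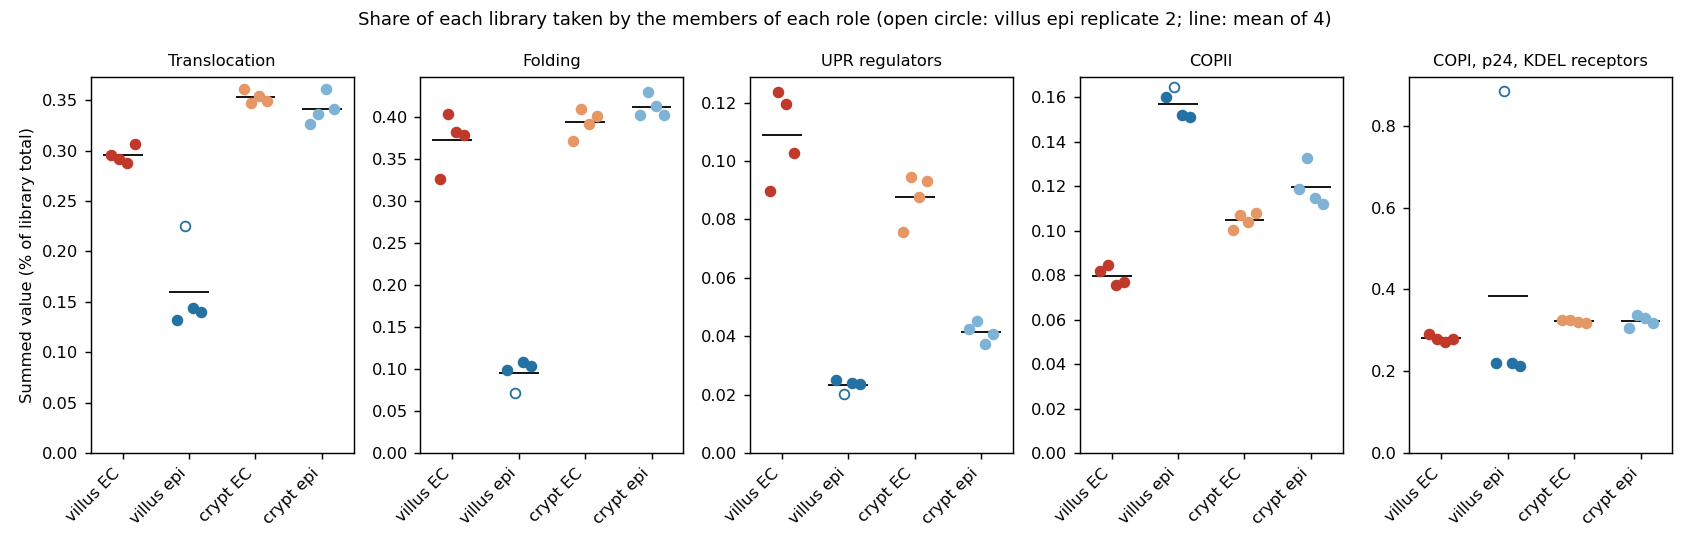
Summed deposited values of the members of each role as a percentage of the library's total, 1 point per library, with the mean of 4 as a line and villus epi replicate 2 as an open circle. Folding and unfolded protein response genes are lowest in villus epi and COPII genes are highest there, and the high open circle in the last panel includes Kdelr2 at 6972 FPKM.

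Differences between groups were tested with limma on log2(value + 1), in 1 fit of all 14089 tested genes, with Benjamini-Hochberg adjustment over all of them and a call at an adjusted p under 0.05. All fold changes below are on that scale, which understates changes of low genes. In villus EC against villus epi, 29 of 77 members were called higher and 17 lower, where 40.6% and 21.6% of all tested genes were called in these directions. Both shares are near the background, and it is the roles that divide them. Without villus epi replicate 2 the counts were 40 and 24, against 48.4% and 26.5% of genes. After rescaling to a common total they were 43 and 10, against 55.6% and 13.3% of genes, and by median ratios 24 and 22, against 33.7% and 26.6%.

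In crypt EC against crypt epi, 4 members were called higher and 28 lower, where 23.2% and 20.0% of genes were called. Fewer members than genes in general were higher and more were lower. This split depended on the scaling: after rescaling 17 were higher and 10 lower, against 42.7% and 10% of genes. The median fold change of members was nevertheless below that of all tested genes in each scaling, by 0.48 on the log2 scale as deposited, 0.40 after rescaling and 0.49 by median ratios. Rescaling moved the median of all genes itself by 0.46. All 4 higher calls (Atf6, Ddit3, Srp14 and Tmed8) and 10 of the 28 lower calls (Copz2, Kdelr3, Pdia2, Pdia4, Pdia5, Pdia6, Sec11c, Sec13, Sec23a and Sec24d) were made in each of the 3 scalings. Without villus epi replicate 2, whose only role in this contrast is in the pooled spread, 8 were higher and 48 lower, against 33.7% and 30.8% of genes.

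Between villus EC and crypt EC, 5 members were called higher and 6 lower, where 10.3% and 16.2% of genes were called. After rescaling the counts were 4 and 15, against 7.96% and 24.5% of genes, and without villus epi replicate 2 they were 12 and 14, against 19.3% and 27.6%. Both member shares were below the background. Between villus epi and crypt epi, 11 were called higher and 39 lower, where 19.6% and 35.4% of genes were called. Without villus epi replicate 2 these were 17 and 47, against 25.5% and 41.8%. Relative to the background, members were called lower more often and higher less often, a difference that was not itself tested. The interaction asks whether the difference of EC from epi is larger in the villus than in the crypt. It was positive for 33 members and negative for 10, where 26.9% and 16.0% of genes were called. Without that library the counts were 41 and 16, against 37.4% and 24.1%. Every member called in the fit of all libraries was also called without villus epi replicate 2.

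**Figure D2:**
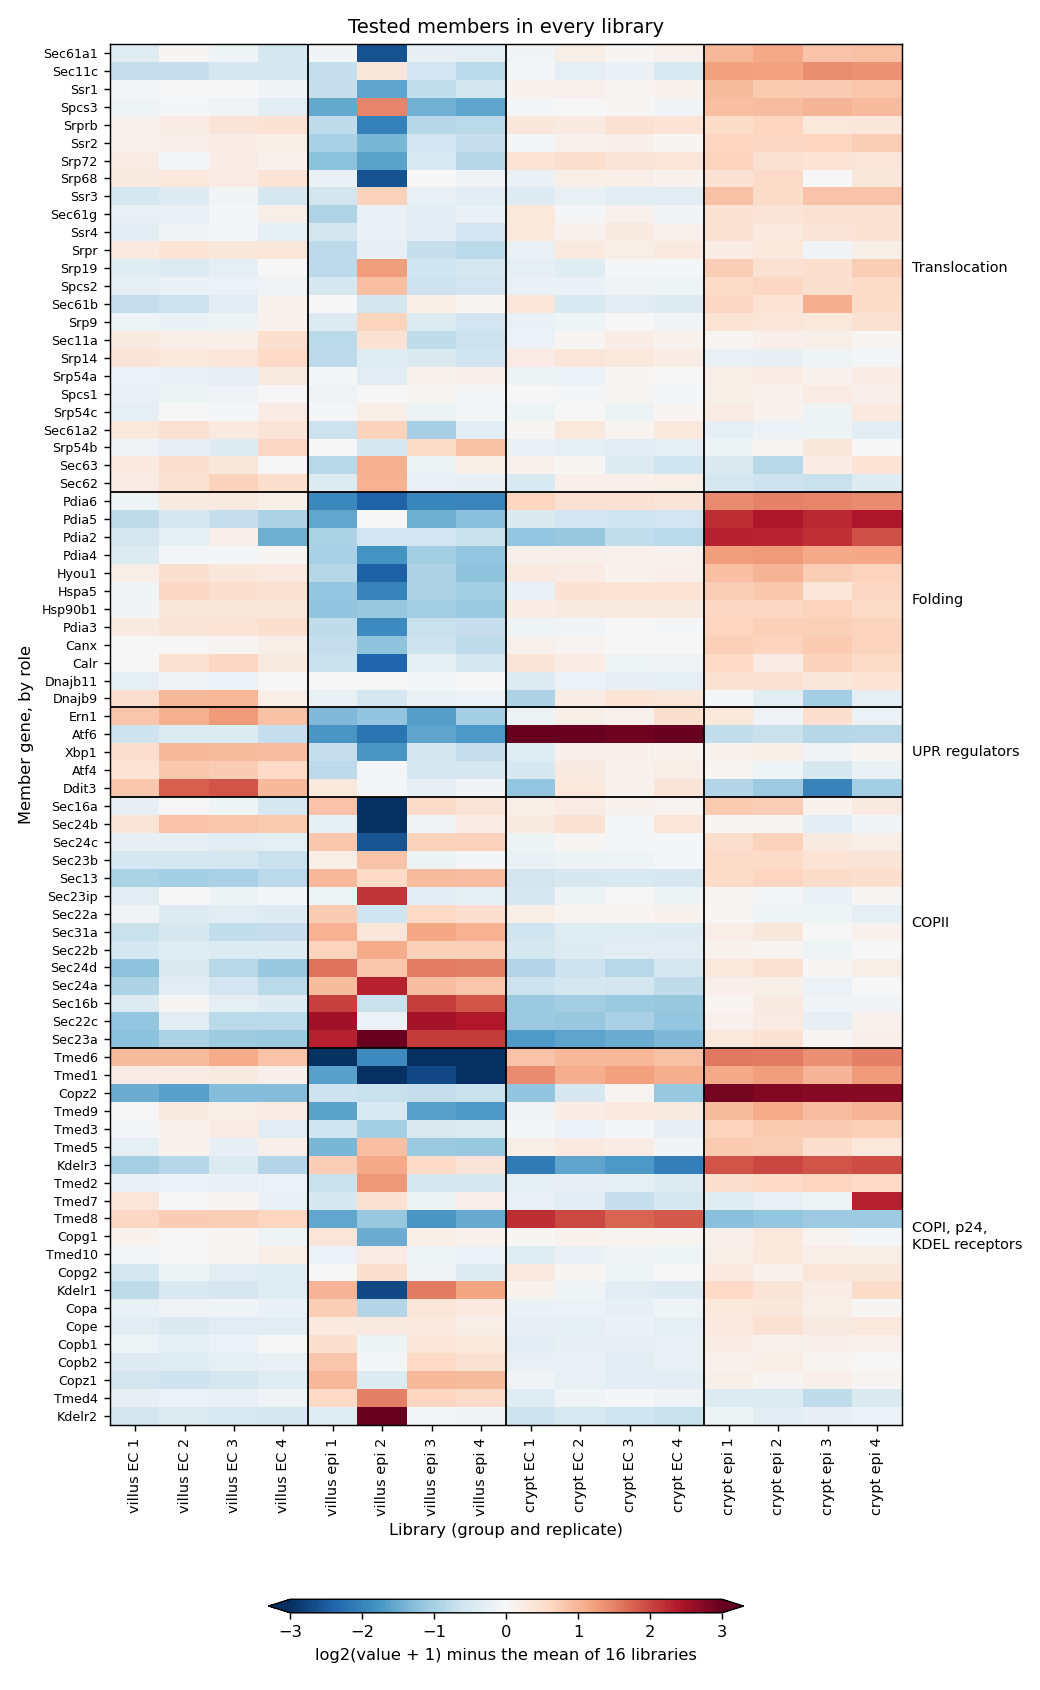
log2(value + 1) of the 77 tested members in each library, minus the gene's mean over the 16 libraries, with rows grouped by role and ordered by the fold change of villus epi against crypt epi. Most folding rows are blue in villus epi and red in crypt epi, the rows of Sec24d, Sec24a and Sec23a are red in all villus epi libraries and blue in most EC libraries, and villus epi replicate 2 departs from its group in many rows.

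The translocation genes bring the nascent chain to the membrane, open the channel and remove the signal peptide. Of 25 tested, 9 were higher and 0 lower in villus EC against villus epi, where 40.6% and 21.6% of all genes were called. In villus epi against crypt epi 0 were higher and 17 lower, where 19.6% and 35.4% of all genes were called. Between villus EC and crypt EC, 0 were higher and 1, Ssr4, was lower, against 10.3% and 16.2% of all genes. Without villus epi replicate 2 this last comparison gave 2 higher and 3 lower, against 19.3% and 27.6%. In crypt EC against crypt epi, 1 was higher and 6 lower as deposited, but 7 were higher and 1 lower after rescaling, so the direction of this group in the crypt flips with the scaling. The median fold change in the villus was 0.33, the same as that of all tested genes to 2 decimals.

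Srprb, the membrane anchor of the signal recognition particle receptor, had 28.8, 30.9, 34.7 and 35.8 FPKM in villus EC, against 15.1, 5.69, 14.2 and 14.8 FPKM in villus epi. The groups did not overlap, and the log2 fold change was 1.40 ± 0.23 (SE; limma adjusted p = 6.17e-05). Srpr, the other receptor subunit, had 131 to 142 FPKM in villus EC and 60.5 to 90.0 FPKM in villus epi. Srp72, a protein subunit of the particle, had 28.5 to 34.8 FPKM in villus EC and 8.94 to 20.9 FPKM in villus epi. Srp14, which takes part in slowing elongation, was called higher in EC at both sites, in each scaling. Sec61a2 and Sec62, translocon genes, joined it without villus epi replicate 2. After rescaling 7 of 25 translocation genes were higher in crypt EC and 18 in villus EC, where 42.7% and 55.6% of all genes were called higher. Srp14 had 218, 209, 217 and 252 FPKM in villus EC against 97.1, 130, 123.3 and 111 FPKM in villus epi, and 199, 215, 210 and 196 FPKM in crypt EC against 144, 140, 153 and 164 FPKM in crypt epi. The log2 fold changes were 0.96 ± 0.11 in the villus and 0.45 ± 0.11 in the crypt.

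Sec61a1, the pore subunit of the translocon, had 196, 33.1, 175 and 171 FPKM in villus epi, against 413, 461, 380 and 384 FPKM in crypt epi. Its log2 fold change there was -1.77 ± 0.40 (limma adjusted p = 0.0015), and -1.17 ± 0.12 without villus epi replicate 2. Sec61b, a small translocon subunit, had 285, 161, 178 and 170 FPKM in crypt EC and 342, 294, 474 and 328 FPKM in crypt epi. That difference of -0.87 was called as deposited and not after rescaling, where it was -0.33 (limma adjusted p = 0.221). Sec11c, a catalytic subunit of signal peptidase, was high in crypt epi alone. It had 72.0, 72.2, 83.0 and 82.1 FPKM in villus EC, 71.9, 149, 79.1 and 66.9 FPKM in villus epi, 113, 96.2, 103 and 86.4 FPKM in crypt EC and 279, 274, 312 and 304 FPKM in crypt epi. Its paralog Sec11a had 145 to 192 FPKM in crypt EC and 169 to 186 FPKM in crypt epi, which overlapped. Spcs1, an accessory subunit of the peptidase, had 142 to 194 FPKM over all 16 libraries and was called in no comparison of the deposited values with all libraries in the fit. Without villus epi replicate 2 it was called lower in villus epi than in crypt epi. Its crypt difference of -0.18 was called lower without villus epi replicate 2, and higher, at 0.35, after rescaling. The median of all tested genes in the crypt was 0.51 after rescaling. Srp54a, Srp54b and Srp54c are near-identical copies, so the split of reads among them is uncertain, and none of the 3 was called with all libraries in the fit. Without villus epi replicate 2, Srp54a was lower in crypt EC against crypt epi (-0.26 ± 0.10) and Srp54b lower in villus EC against villus epi (-0.51 ± 0.22). Exons of Srpr overlap those of Fam118b and Tirap on the opposite strand, those of Spcs1 overlap Glt8d1 on the opposite strand, and those of Sec11a overlap Nmb on the same strand.

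The folding genes were low in villus epi and differed less between the EC groups. Of 12 tested, 9 were higher and 0 lower in villus EC against villus epi, where 40.6% and 21.6% of all genes were called. In villus epi against crypt epi 0 were higher and 11 lower, against 19.6% and 35.4% of all genes. Between villus EC and crypt EC 0 were called either way, against 10.3% higher and 16.2% lower of all genes. At an unadjusted p under 0.05 the last comparison would have given 3 (Dnajb9 and Pdia3 higher, Pdia6 lower). Its fold changes ran from -0.34 to 0.66 over the 12 genes. After rescaling 0 were called higher and 2 lower in it, against 7.96% and 24.5% of all genes. Villus epi replicate 2 enters this comparison only through the pooled spread. Without it 1 was called higher (Pdia3) and 2 lower (Pdia4 and Pdia6). In crypt EC against crypt epi 0 were higher and 8 lower as deposited, and 1 was higher and 4 lower after rescaling. The interaction was called for 11 of 12, with a median of 2.10 against 0.21 for all tested genes. Without villus epi replicate 2 the villus count was 10 and 0.

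Hspa5, the BiP chaperone, had the highest mean FPKM of all members over the 16 libraries. It had 773, 1263, 1148 and 1124 FPKM in villus EC, 362, 203, 431 and 399 FPKM in villus epi, 713, 1107, 1081 and 1077 FPKM in crypt EC and 1362, 1434, 1040 and 1263 FPKM in crypt epi. The villus groups did not overlap and the crypt groups did. The log2 fold change was 1.66 ± 0.23 in the villus (limma adjusted p = 1.27e-05) and -0.37 ± 0.23 in the crypt (adjusted p = 0.217), and the interaction was 2.03 ± 0.32 (adjusted p = 0.000133). Hsp90b1, the ER member of the HSP90 family, had 291, 386, 387 and 388 FPKM in villus EC and 135, 140, 148 and 142 FPKM in villus epi, a difference of 1.35 ± 0.10. In the crypt it had 358 to 372 FPKM in EC and 459 to 491 FPKM in epi, a difference of -0.37 that became 0.17 after rescaling.

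Pdia6, a disulfide isomerase that also restrains IRE1, had the largest villus difference among folding genes. It had 154, 202, 204 and 189 FPKM in villus EC, 43.6, 30.5, 42.4 and 41.8 FPKM in villus epi, 264, 231, 232 and 219 FPKM in crypt EC and 448, 478, 469 and 449 FPKM in crypt epi. The order crypt epi, crypt EC, villus EC, villus epi held without overlap, although the step between villus EC and crypt EC was not called with all libraries in the fit (-0.34 ± 0.13, limma adjusted p = 0.0597). Without villus epi replicate 2, Pdia6 was called lower in villus EC than in crypt EC. The fold change was 2.22 ± 0.13 for villus EC against villus epi and -3.52 ± 0.13 for villus epi against crypt epi. Pdia4, another isomerase, had 109 to 149 FPKM in villus EC, 41.5 to 73.3 FPKM in villus epi, 159 to 162 FPKM in crypt EC and 322 to 356 FPKM in crypt epi. Exons of Pdia6 overlap those of Atp6v1c2, and those of Pdia3 overlap Catsper2, both on the opposite strand. Pdia3, which works with calnexin and calreticulin on glycoproteins, had 616 to 713 FPKM in villus EC, 134 to 318 FPKM in villus epi, 466 to 504 FPKM in crypt EC and 797 to 840 FPKM in crypt epi.

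Pdia5 and Pdia2 were high in crypt epi alone. Pdia5 had 13.6, 16.7, 14.3 and 12.1 FPKM in villus EC, 7.46, 24.1, 8.02 and 9.45 FPKM in villus epi, 17.5, 15.8, 15.5 and 15.6 FPKM in crypt EC and 116, 133, 120 and 132 FPKM in crypt epi. Its log2 fold change was -2.88 ± 0.26 for crypt EC against crypt epi and -3.40 ± 0.26 for villus epi against crypt epi. Pdia2, known as an isomerase of the pancreas, had at most 2.06 FPKM in every library of villus EC, villus epi and crypt EC, against 12.7, 12.3, 11.6 and 9.44 FPKM in crypt epi. Crypt epi is also the group with the Paneth markers: all 10 were lower in crypt EC and all 10 lower in villus epi, and all 12 goblet markers were lower in crypt EC. Their part in these results was not tested.

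Canx and Calr, the calnexin and calreticulin lectin chaperones, were both higher in villus EC. Canx had 210 to 241 FPKM in villus EC and 91.7 to 134 FPKM in villus epi, a difference of 0.90 ± 0.11, and Calr had 277 to 427 FPKM in villus EC and 52.1 to 228 FPKM in villus epi, a difference of 1.30 ± 0.34. Hyou1, a nucleotide exchange factor for BiP, had 52.0 to 64.3 FPKM in villus EC and 7.55 to 24.6 FPKM in villus epi (1.68 ± 0.26). Of the J-domain cochaperones of BiP, Dnajb9 was called higher in villus EC, as BiP was, and Dnajb11 was not. Dnajb11 had 83.4, 94.8, 88.5 and 99.7 FPKM in villus EC and 101, 100, 98.7 and 99.4 FPKM in villus epi, a difference of -0.13 that was not called (limma adjusted p = 0.238). Dnajb9 had 52.6, 74.9, 74.8 and 42.6 FPKM in villus EC and 31.3, 25.3, 31.6 and 32.5 FPKM in villus epi (0.96 ± 0.29, adjusted p = 0.0088), a call that was lost by median ratios (adjusted p = 0.0608).

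**Figure D3:**
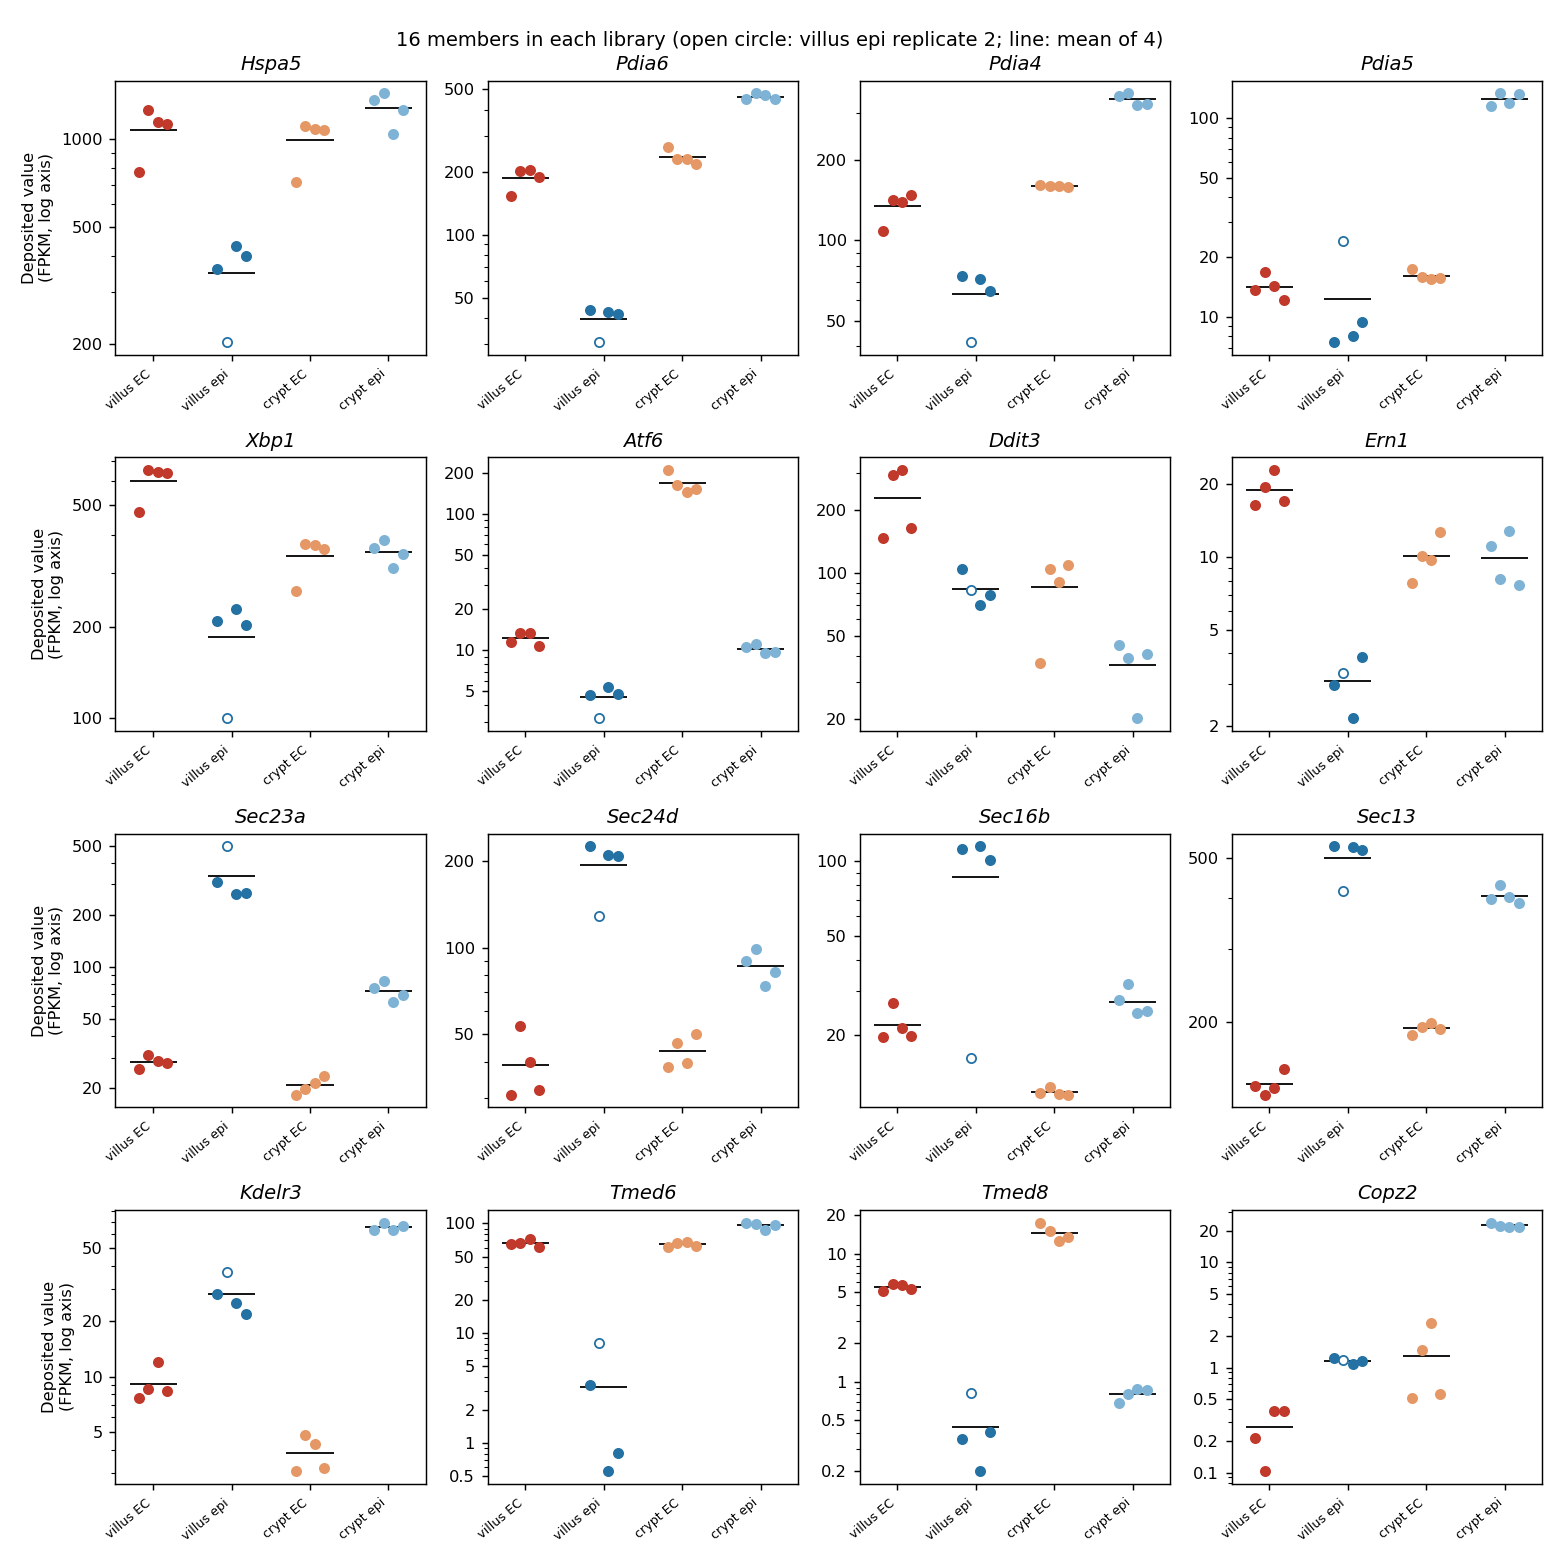
Deposited FPKM of 16 members in each library on log axes, with the mean of 4 libraries as a line and villus epi replicate 2 as an open circle. Atf6 and Tmed8 are highest in crypt EC, Pdia5, Kdelr3 and Copz2 in crypt epi, Xbp1, Ern1 and Ddit3 in villus EC, and Sec23a, Sec24d and Sec13 in villus epi.

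All 5 unfolded protein response regulators were higher in villus EC than in villus epi, in each scaling and without villus epi replicate 2. In these fits 33.7% to 55.6% of all genes were called higher. Between the EC groups 4 were higher in villus EC (Xbp1, Ern1, Ddit3 and Atf4) and 1, Atf6, was lower, against 10.3% and 16.2% of all genes. In crypt EC against crypt epi 2 were higher as deposited (Atf6 and Ddit3), against 23.2% of all genes. After rescaling all 5 were higher there, against 42.7% of all genes. The fold changes were 0.49 for Xbp1, 0.52 for Ern1 and 0.75 for Atf4, where the median of all tested genes was 0.51. After rescaling, Atf4 lost its call between the EC groups (0.41, limma adjusted p = 0.125). Of 8 other gut hormone genes, 4 were called higher in villus EC than in crypt EC, and their sum of 52456 to 107447 in villus EC against 1843 to 9531 in crypt EC was nearly all Sct (secretin), at 50729 to 103341 FPKM in villus EC and 1280 to 9171 FPKM in crypt EC. Ghrl (ghrelin) averaged 93.0 FPKM in villus EC and 216 FPKM in crypt EC. Paneth markers summed to 51.8 to 95.2 in villus EC and 6380 to 9555 in crypt EC, and 12 cycling markers to 68.7 to 77.0 in villus EC and 279 to 414 in crypt EC. The part of these cell type differences in the results between the EC groups was not tested.

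Atf6 showed the largest change of any member between the EC groups. It encodes the membrane-bound sensor that is cleaved in the Golgi to release a transcription factor. It had 11.5, 13.4, 13.5 and 10.7 FPKM in villus EC, 4.69, 3.17, 5.44 and 4.79 FPKM in villus epi, 210, 163, 145 and 153 FPKM in crypt EC and 10.5, 11.1, 9.53 and 9.80 FPKM in crypt epi. All 4 crypt EC libraries lay above every other library. The log2 fold change was 3.89 ± 0.16 for crypt EC against crypt epi (limma adjusted p = 3.37e-11) and -3.66 ± 0.16 for villus EC against crypt EC (adjusted p = 2.25e-10). The difference between EC and epi was smaller in the villus, 1.28 ± 0.16, and the interaction was -2.62 ± 0.22 (adjusted p = 3.02e-07). The annotation used here (GENCODE vM21) gave no other gene overlapping its exons. Its relative Atf6b, from the list of other regulators, showed no such peak, with means of 63.2 FPKM in villus EC, 12.6 FPKM in villus epi, 50.1 FPKM in crypt EC and 41.5 FPKM in crypt epi.

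Xbp1, the transcription factor whose mRNA IRE1 splices, had 478, 655, 643 and 639 FPKM in villus EC, 208, 99.8, 228 and 203 FPKM in villus epi, 262, 374, 371 and 359 FPKM in crypt EC and 362, 385, 312 and 346 FPKM in crypt epi. Villus EC lay above all other groups, and the crypt groups overlapped. The fold change was 1.76 ± 0.22 for villus EC against villus epi and 0.82 ± 0.22 for villus EC against crypt EC (limma adjusted p = 0.0105). These gene-level values do not separate spliced from unspliced Xbp1. Ern1, the IRE1 sensor found in most cells, had 16.4, 19.5, 22.95 and 17.0 FPKM in villus EC, 2.96, 3.32, 2.15 and 3.85 FPKM in villus epi, 7.81 to 12.7 FPKM in crypt EC and 7.65 to 12.9 FPKM in crypt epi. Its fold change was 2.30 ± 0.20 in the villus and 0.03 ± 0.20 in the crypt. After rescaling the crypt value was 0.52 and called higher, where the median of all tested genes was 0.51.

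Ddit3, which encodes CHOP, a factor induced by the PERK arm, had 147, 293, 312 and 165 FPKM in villus EC, 104, 82.7, 70.5 and 78.8 FPKM in villus epi, 37.2, 105, 90.6 and 110 FPKM in crypt EC and 45.1, 39.1, 20.2 and 40.9 FPKM in crypt epi. It was the only member called higher in all 4 pairwise comparisons, with log2 fold changes of 1.16 to 1.45. Crypt EC replicate 1 overlapped crypt epi. The exons of Ddit3 overlap those of Mars on the opposite strand, and reads of the 2 cannot be told apart without strand. Atf4, the factor upstream of it, had 68.6 to 90.5 FPKM in villus EC, 29.5 to 49.5 FPKM in villus epi, 36.6 to 62.4 FPKM in crypt EC and 36.7 to 53.3 FPKM in crypt epi.

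COPII genes ran against the folding genes. Of 14 tested, 1 was higher and 10 lower in villus EC against villus epi, where 40.6% and 21.6% of all genes were called. In villus epi against crypt epi 8 were higher and 0 lower, against 19.6% and 35.4% of all genes. The median fold change in the villus was -1.38, where that of all tested genes was 0.33. In the villus comparison of EC with epi, 1 was higher and 8 lower after rescaling, against 55.6% and 13.3% of all genes. By median ratios there were 0 and 10, against 33.7% and 26.6%, and without villus epi replicate 2 there were 1 and 12, against 48.4% and 26.5%. In crypt EC against crypt epi 0 were higher and 6 lower, against 23.2% and 20.0% of all genes. Between villus EC and crypt EC 0 were higher and 1 lower, against 10.3% and 16.2%. Without villus epi replicate 2 these last 2 comparisons gave 1 higher and 10 lower, against 33.7% and 30.8%, and 3 higher and 3 lower, against 19.3% and 27.6%.

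Sec23a, an inner-coat subunit that activates the Sar1 GTPase, had the largest villus difference of these genes. It had 25.7, 31.3, 28.7 and 28.02 FPKM in villus EC, 310, 499, 264 and 267 FPKM in villus epi, 18.4, 19.8, 21.4 and 23.5 FPKM in crypt EC and 76.3, 83.6, 63.2 and 68.8 FPKM in crypt epi. EC lay below epi at both sites without overlap. The log2 fold change was -3.46 ± 0.18 in the villus (limma adjusted p = 1.82e-10) and -1.76 ± 0.18 in the crypt (adjusted p = 8.83e-07), and the interaction was -1.70 ± 0.25. Its paralog Sec23b had 52.9 to 58.5 FPKM in villus EC and 75.7 to 153 FPKM in villus epi. That difference of -0.77 was called as deposited and not after rescaling (-0.14, adjusted p = 0.545).

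Among the cargo-binding Sec24 subunits, Sec24d had 30.8, 53.2, 40.1 and 32.0 FPKM in villus EC, 225, 129, 210 and 208 FPKM in villus epi, 38.5, 46.5, 39.8 and 50.3 FPKM in crypt EC and 89.9, 99.0, 73.8 and 82.1 FPKM in crypt epi. Its villus difference was -2.28 ± 0.20. Sec24a had 9.74, 14.9, 12.7 and 10.7 FPKM in villus EC and 37.9, 99.0, 37.3 and 35.3 FPKM in villus epi (-1.91 ± 0.26). Sec24b was the exception, with 17.5, 24.9, 24.6 and 23.6 FPKM in villus EC and 10.9, 0.290, 12.3 and 15.8 FPKM in villus epi. Its difference of 1.61 was 0.76 ± 0.16 without villus epi replicate 2 and lost its call by median ratios (limma adjusted p = 0.0683). Sec24c had 88.3 to 93.8 FPKM in villus EC and 193, 17.7, 180 and 178 FPKM in villus epi, and was not called, but was lower without replicate 2 (-0.997 ± 0.10).

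The outer coat and the exit sites followed. Sec13, an outer-coat subunit shared with the nuclear pore, had 141, 133, 138 and 154 FPKM in villus EC, 533, 416, 529 and 522 FPKM in villus epi, 187, 195, 200 and 192 FPKM in crypt EC and 398, 428, 401 and 387 FPKM in crypt epi. The log2 fold change of EC against epi was -1.81 ± 0.10 in the villus and -1.06 ± 0.10 in the crypt. Its partner Sec31a had 95.2 to 115 FPKM in villus EC and 208 to 357 FPKM in villus epi. Sec16b, which helps organise exit sites, had 19.6, 26.9, 21.3 and 19.8 FPKM in villus EC, 112, 16.2, 115 and 101 FPKM in villus epi, 11.7, 12.4, 11.6 and 11.5 FPKM in crypt EC and 27.7, 32.0, 24.5 and 25.0 FPKM in crypt epi. Replicate 2 was the only villus epi library below villus EC, and the difference of -1.61 ± 0.44 became -2.28 ± 0.11 without it. Its larger paralog Sec16a was not called, with 20.6 to 29.4 FPKM in villus EC and 54.5, 1.83, 45.2 and 39.5 FPKM in villus epi. Its difference of 0.18 turned to -0.83 ± 0.16, and was called, without replicate 2. Sec22c, a relative of the vesicle fusion protein Sec22b, had 2.64, 5.58, 3.66 and 3.68 FPKM in villus EC, 45.6, 6.26, 44.9 and 42.2 FPKM in villus epi, 2.69 to 3.18 FPKM in crypt EC and 5.89 to 8.75 FPKM in crypt epi. Its villus difference was -2.58 ± 0.45, and -3.24 ± 0.17 without replicate 2.

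Absorptive markers moved with the COPII genes in the villus: 10 of 11 were lower in villus EC against villus epi and 11 of 11 higher in villus epi than in crypt epi, with sums of 1738 to 2709 in villus EC. Their part in the COPII result was not tested.

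**Figure D4:**
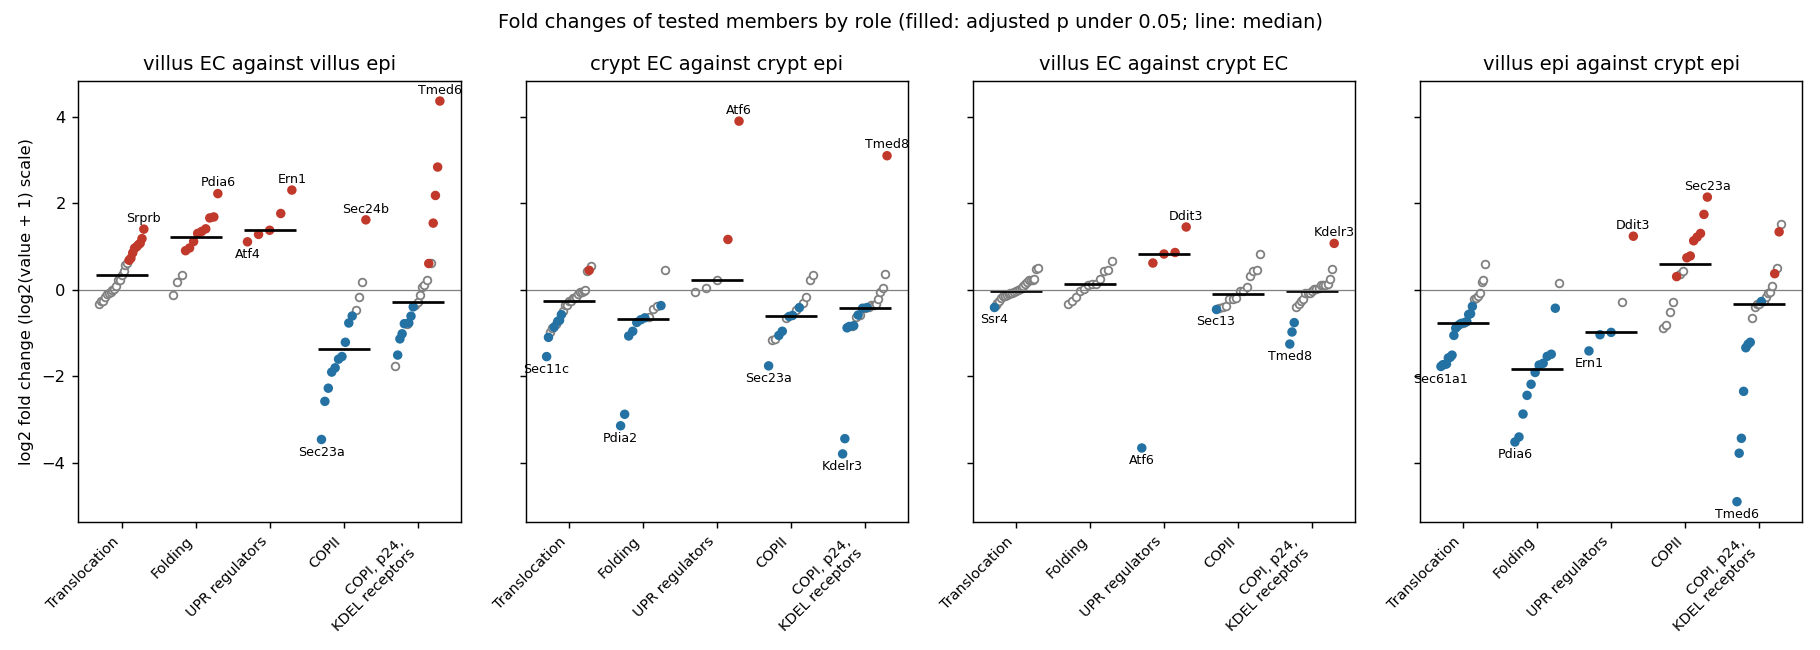
log2 fold changes (log2(value + 1) scale) of the 77 tested members in the 4 pairwise comparisons, by role, with filled points called at an adjusted p under 0.05, red higher and blue lower, and the median as a line. In the villus the medians of folding genes and regulators are above 0 and that of COPII genes is -1.38, and between the EC groups the filled points are few.

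The COPI coat, p24 and KDEL receptor genes, counted as 1 role, were called in both directions in each pairwise comparison. Of 21 tested, 5 were higher and 7 lower in villus EC against villus epi, 1 higher and 8 lower in crypt EC than in crypt epi, 1 higher and 3 lower in villus EC than in crypt EC, and 2 higher and 8 lower in villus epi than in crypt epi. After rescaling the villus split was 8 higher and 2 lower, where 55.6% and 13.3% of all genes were called. The crypt split was then 3 higher and 2 lower, against 42.7% and 10% of all genes. The median fold change of the role after rescaling stayed below that of all tested genes. It was 0.34 against 0.80 in the villus and 0.11 against 0.51 in the crypt. As deposited, the 5 higher calls in the villus were all Tmed genes (Tmed1, Tmed3, Tmed6, Tmed8 and Tmed9). The coat genes called there (Copb1, Copb2, Cope, Copz1 and Copz2) were all lower, as most COPII genes were. Copa, Copg1 and Copg2 were not called, and Copg1 had a positive difference of 0.21. Of the coat genes called lower, only Copz1 kept its call after rescaling. Cope, a COPI coat subunit, had 250 to 272 FPKM in villus EC against 389 to 412 FPKM in villus epi, a difference of -0.61 that was 0.02 after rescaling. Copz1 had 182, 173, 186 and 207 FPKM in villus EC and 529, 199, 527 and 518 FPKM in villus epi, and was lower in each scaling. Copz2, the alternative zeta subunit, was found mainly in crypt epi. It had 0.103 to 0.387 FPKM in villus EC, 1.09 to 1.23 FPKM in villus epi, 0.516, 1.47, 2.64 and 0.562 FPKM in crypt EC and 23.9, 22.3, 21.8 and 21.6 FPKM in crypt epi. Its fold change was -3.44 ± 0.23 both for crypt EC and for villus epi against crypt epi.

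The p24 proteins, which package cargo such as GPI-anchored proteins, included the largest villus change of any member. Tmed6 had 65.2, 65.8, 72.9 and 60.7 FPKM in villus EC, 3.38, 8.20, 0.555 and 0.817 FPKM in villus epi, 61.6, 66.4, 67.4 and 62.4 FPKM in crypt EC and 102, 99.7, 87.5 and 97.6 FPKM in crypt epi. The log2 fold change was 4.36 ± 0.39 for villus EC against villus epi (limma adjusted p = 1.1e-07) and -0.58 ± 0.39 for crypt EC against crypt epi, with an interaction of 4.94 ± 0.55. Tmed1 had 12.1, 11.97, 12.4 and 11.3 FPKM in villus EC, 2.57, 0.327, 0.705 and 0.343 FPKM in villus epi, 22.5 to 28.4 FPKM in crypt EC and 21.5 to 25.6 FPKM in crypt epi. Its exons overlap those of Dnm2, which lies on the opposite strand and was higher than Tmed1 in every group. Tmed8 was higher in EC than in epi at both sites. It had 5.14, 5.79, 5.66 and 5.25 FPKM in villus EC against 0.355, 0.815, 0.200 and 0.406 FPKM in villus epi, and 17.5, 14.9, 12.5 and 13.3 FPKM in crypt EC against 0.686, 0.801, 0.874 and 0.867 FPKM in crypt epi. Its fold change was 2.18 ± 0.15 in the villus and 3.10 ± 0.15 in the crypt, and -1.26 ± 0.15 for villus EC against crypt EC.

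Tmed9 and Tmed3 followed the folding genes, higher in villus EC than in villus epi (1.54 ± 0.22 and 0.60 ± 0.14) and lower in villus epi than in crypt epi (-2.35 ± 0.22 and -1.34 ± 0.14). Tmed3 lost its villus call by median ratios (limma adjusted p = 0.118). Tmed4 went the other way, with 171, 179, 174 and 187 FPKM in villus EC, 306, 581, 318 and 302 FPKM in villus epi, 156 to 197 FPKM in crypt EC and 120 to 153 FPKM in crypt epi. Its villus difference of -1.02 lost its call after rescaling (-0.39, adjusted p = 0.107). Tmed10 had 265 to 423 FPKM over all libraries, and the pseudogene Tmed10-ps, at 1.58 FPKM or less, can share reads with it. The 3 KDEL receptors differed. Kdelr3 had 7.69, 8.57, 11.98 and 8.38 FPKM in villus EC, 28.2, 37.1, 25.3 and 21.9 FPKM in villus epi, 3.06, 4.83, 4.30 and 3.17 FPKM in crypt EC and 63.2, 69.2, 62.99 and 66.6 FPKM in crypt epi, with no overlap between any 2 groups. Its fold change was -3.80 ± 0.18 in the crypt, -1.51 ± 0.18 in the villus and 1.07 ± 0.18 for villus EC against crypt EC. Its exons overlap those of Ddx17 on the opposite strand, whose means were 7.09 FPKM in villus epi and 12.9 FPKM in crypt epi. Kdelr1 and Kdelr2 were called in no comparison as long as villus epi replicate 2 was included, with Kdelr1 at 37.7 to 49.99 FPKM in villus EC and 132, 9.02, 194 and 148 FPKM in villus epi. Without that library both were lower in villus EC against villus epi (-1.78 ± 0.15 for Kdelr1 and -0.31 ± 0.09 for Kdelr2).

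The promoter elements printed above fell along the same division. All 5 ERSE holders were called higher in villus EC than in villus epi, with a median log2 fold change of 1.35, and lower in villus epi than in crypt epi, with a median of -1.74. Of the other 61 tested members with a promoter entry, 20 were higher and 17 lower in the villus, with a median of 0.09. All 6 UPRE holders were called lower in villus EC against villus epi, with a median of -1.56, and 4 were higher and 1 lower in villus epi than in crypt epi. Of the other 60, 25 were higher and 11 lower in the villus, with a median of 0.23. Copb1 and Copb2 lost their villus calls after rescaling, where Copb1 stood at 0.23 and Copb2 at -0.16. The 5 ERSE holders are all folding genes, so role and element cannot be told apart for them. The UPRE holders are 3 COPII genes and 3 of the COPI, p24 and KDEL receptor role. Of 14 tested COPII genes 10 were lower in the villus, and the COPI coat genes called there were all lower. Role and element were therefore not told apart for the UPRE holders either.

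Genes of the same route outside the symbol rule were counted in 6 lists, to be read against the 40.6% of all genes called higher and 21.6% called lower in villus EC against villus epi, and 19.6% and 35.4% in villus epi against crypt epi. For villus EC against villus epi, counts after rescaling are to be read against 55.6% and 13.3% of all genes. Those by median ratios are to be read against 33.7% and 26.6%, and those without villus epi replicate 2 against 48.4% and 26.5%. Nothing here sets a list apart from other genes by a test. Of 16 oligosaccharyltransferase and glycan-trimming genes, which attach and process N-glycans in the ER, 8 were higher and 1 lower in villus EC against villus epi, and 1 was higher and 13 lower in villus epi than in crypt epi. Rpn1, a transferase subunit, had means of 247 FPKM in villus EC, 93.5 FPKM in villus epi, 259 FPKM in crypt EC and 502 FPKM in crypt epi. Of 34 other chaperones and oxidoreductases, 18 were higher and 5 lower in villus EC against villus epi, and 1 was higher and 26 lower in villus epi than in crypt epi. Agr2, an isomerase needed for mucin, averaged 5039 FPKM in villus EC, 565 FPKM in villus epi, 814 FPKM in crypt EC and 6480 FPKM in crypt epi. P4hb, the archetypal disulfide isomerase, ran against this, with means of 392.4 FPKM in villus EC and 1704 FPKM in villus epi (-1.84, called), although villus epi replicate 2 had 398 FPKM. P4hb is also a subunit of the microsomal triglyceride transfer complex.

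Of 37 other ER to Golgi carriers, 9 were higher and 21 lower in villus EC against villus epi, although after rescaling 16 were higher and 13 lower. Sar1b, the GTPase that starts COPII assembly and is required for chylomicron export in humans, averaged 129 FPKM in villus EC, 611 FPKM in villus epi, 113 FPKM in crypt EC and 163 FPKM in crypt epi. Its villus difference was -2.19, whereas its paralog Sar1a was higher in villus EC by 0.57. Tfg, an organiser of exit sites, averaged 95.6 FPKM in villus EC and 582 FPKM in villus epi. Of 23 other regulators of the unfolded protein response, 12 were higher and 4 lower in villus EC against villus epi. Creb3l3, a liver and intestinal relative of Atf6 that controls lipid genes, averaged 9.64 FPKM in villus EC, 701 FPKM in villus epi, 3.99 FPKM in crypt EC and 59.3 FPKM in crypt epi. Asns, a target of ATF4, averaged 257 FPKM in villus EC and 13.3 FPKM in villus epi. Of 21 ER-associated degradation genes, 5 were higher and 6 lower in villus EC against villus epi. After rescaling the counts were 12 and 2, near the shares of all genes in that setting. By median ratios they were 2 and 7, and without villus epi replicate 2 they were 6 and 10. Of 20 other translocation and membrane insertion genes, 10 were higher and 5 lower, near the share of all genes, and 13 and 1 after rescaling. Without villus epi replicate 2 these were 11 and 6. In that setting the counts were 10 and 1 for oligosaccharyltransferase and glycan-trimming genes and 21 and 5 for other chaperones and oxidoreductases. They were 14 and 9 for other regulators and 9 and 25 for other carriers.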

How the data were processed

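RNA was measured by full-length cDNA sequencing of sorted cells in 16 libraries, 4 in each of villus EC, villus epi, crypt EC and crypt epi. The deposited table holds FPKM per gene for each library. The submitters' processing notes name bcl2fastq 2.20, kallisto, sleuth and build mm10, with how the FPKM were scaled and the annotation release not given in the sources used here. The table holds no read counts, so depth is unknown and no counting interval or floor is given.

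Members were found by matching gene symbols to a fixed name pattern. The members and lists were chosen with earlier results of these data known. Genes with at least 1 FPKM in at least 4 libraries were kept (14089 of 20072, with 5983 left out). limma 3.58.1 (R 4.3.3) was fitted to log2(value + 1) in 1 model of the 4 groups, with an empirical Bayes estimate of the spread and Benjamini-Hochberg adjustment over all tested genes, and a call was an adjusted p under 0.05. The scripts were tested on simulated data with the spread of the real fit. Log2 changes of 1 were recovered for 53% of changed genes in the crypt comparison of EC with epi and 41% in the villus one. Changes of 2 were recovered for 82% and 83%. A gene without a call can therefore still differ. Named members were 18 chosen by role, plus the called members with the largest changes whose mean was at least 10 in the higher group: 6 in each direction for EC against epi, and 4 in each direction for the other comparisons. Other members named as paralogs, partners or exceptions were chosen after their values were seen. For the related lists, up to 3 called genes with the largest change were eligible, and Sar1a, Atf6b and P4hb were named after their values were seen.

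Alternatives were pseudocounts of 0.1 and 5, no filter, a filter at 5, rescaling each library to a total of 1000000, median-ratio scaling, blocks by the numbers in the titles and by library numbers, sample quality weights, fits of only the compared groups, and leaving out each library. Same-numbered libraries had deviations that correlated from -0.268 to 0.170, so the numbers were not taken to pair samples. Promoters came from RefSeq (GRCm38.p6, the same build as mm10), with 67 of 79 members matched. 1 of the UPRE windows is not reported here, and those of Cope and Dnajb11 are not printed. Exon overlaps came from GENCODE vM21. Whether counting used strand is not given in the sources used here. Protein sequences were not analysed here. Figures and counts used Python 3.11.15, pandas 2.3.3, numpy 2.4.6 and matplotlib 3.10.9.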

Additional observations from a re-analysis of the deposited data

Results flagged for a closer look

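In villus epi, replicate 2 lay far from its 3 group members for many genes: 581 FPKM for Tmed4, 416 for Sec13, 16.2 for Sec16b, 6.26 for Sec22c, 99.0 for Sec24a, 25.3 for Dnajb9, 134 for Pdia3, 24.1 for Pdia5, 30.5 for Pdia6, 149 for Sec11c and 33.1 for Sec61a1. Replicate 1 of villus epi stood apart for Tmed1, at 2.57 FPKM. In crypt EC, replicate 1 stood apart at 713 FPKM for Hspa5, 17.5 for Pdia5, 285 for Sec61b and 262 for Xbp1, and replicate 3 at 3.18 FPKM for Sec22c. In villus EC, replicate 1 stood apart at 291 FPKM for Hsp90b1 and 478 for Xbp1, and in crypt epi, replicate 3 at 120 FPKM for Tmed4 (119.7 before rounding). Over all 79 members, 46 of 316 sets of 4 libraries held such a library, 29 of them in villus epi and 28 of those from replicate 2, where chance gives about 1 in 20 sets.

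The difference of EC from epi itself differed between villus and crypt for 33 members that were more positive in the villus and 10 that were more negative, by the limma interaction term. Among folding genes this log2 difference was 2.03 for Hspa5, 1.71 for Hsp90b1, 1.74 for Calr, 1.55 for Canx, 2.32 for Hyou1, 3.32 for Pdia2, 2.16 for Pdia3, 2.18 for Pdia4, 3.23 for Pdia5, 3.18 for Pdia6 and 0.57 for Dnajb11. Among regulators it was 0.89 for Atf4, 2.27 for Ern1, 1.81 for Xbp1 and -2.62 for Atf6. For COPII genes it was -0.75 for Sec13, -1.70 for Sec23a, -1.25 for Sec24a and -1.32 for Sec24d. For translocation genes it was 1.38 for Sec11c, 1.47 for Sec61a1 (0.87 without villus epi replicate 2) and 0.51 for Srp14. For the remaining members it was 2.67 for Copz2, 2.28 for Kdelr3, 2.80 for Tmed1, -1.37 for Tmed4, 4.94 for Tmed6 and -0.92 for Tmed8.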

How the results depend on the processing

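Counts of called members (higher, lower) were 4 and 28 for crypt EC against crypt epi, 29 and 17 for villus EC against villus epi, 5 and 6 for villus EC against crypt EC, 11 and 39 for villus epi against crypt epi, and 33 and 10 for the interaction. After rescaling to a common total, the crypt counts became 17 and 10, the villus lower count 10 and the lower count between EC groups 15, and Hsp90b1 in the crypt turned to 0.17 (limma adjusted p = 0.135), since totals were larger in epi than in EC at both sites and in villus EC than in crypt EC. Sample quality weights gave 9 and 54 in the crypt, 15 and 16 between EC groups and 16 lower in the interaction. Fits of only the 2 groups compared gave 8 and 50 in the crypt and 13 and 17 between EC groups. The cause was not tested for either. Leaving out 1 library at a time gave 3 to 8 and 26 to 48 in the crypt, 27 to 40 and 16 to 24 in the villus, 4 to 12 and 5 to 14 between EC groups, 9 to 17 and 35 to 47 between epi groups, and 29 to 41 and 9 to 16 in the interaction, each highest without villus epi replicate 2.

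The replicate block by library numbers gave 1 and 2 between EC groups and 7 higher between epi groups; with the numbers in the titles as a replicate block, counts were 4 and 29, 28 and 17, 5 and 6, 10 and 38, and 30 and 10. Same-numbered libraries did not correlate in every pair (-0.268 to 0.170), so neither numbering is shown to pair samples. Unknown depth limits what can be said of members under about 1 FPKM.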

Other observations

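Other carriers with the highest level in villus epi included Mcfd2, a cargo receptor partner, which averaged 50.3 FPKM in villus EC, 293 FPKM in villus epi, 76.5 FPKM in crypt EC and 118 FPKM in crypt epi. Mia3 (TANGO1), which loads bulky cargo such as procollagen into COPII carriers, ran the other way, with means of 107 FPKM in villus EC, 21.0 FPKM in villus epi, 53.6 FPKM in crypt EC and 51.9 FPKM in crypt epi. Its log2 fold change for villus EC against villus epi was 2.71. Bhlha15 (Mist1), a transcription factor of secretory cells, averaged 0.959 FPKM in villus EC, 0.138 FPKM in villus epi, 1.97 FPKM in crypt EC and 36.2 FPKM in crypt epi. Ern2, the IRE1 form of mucus-producing epithelium, averaged 64.8 FPKM in villus EC, 10.7 FPKM in villus epi, 12.8 FPKM in crypt EC and 112 FPKM in crypt epi, whereas Ern1 was highest in villus EC.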
